A study of Mus musculus with 6 samples.

Results

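The genes of 9 trafficking receptors were examined in monocytes from the central nervous system (CNS) of mice with experimental autoimmune encephalomyelitis (EAE): *Ccr1*, *Ccr2*, *Ccr7*, *Ccrl2*, *Cx3cr1*, *Cxcr2*, *Cxcr3*, *Cxcr4*, and *S1pr1*. They were chosen by name as chemokine receptors and related receptors of monocyte movement, and they are 9 of the 54232 genes in the files. Of the 9, 8 passed the filter on low counts and were tested among 11254 genes, and *Ccr7* did not pass. The comparison was between 2 groups of 3 libraries, numbered 1 to 3 in each. Both groups came from lethally irradiated GFP+ recipients that carried equal shares of bone marrow (BM) from CD45.1 donors (WT) and CD45.2 donors (Ifnar1-/-), were immunized for EAE 6 to 7 weeks later, and were given 30000 IU of IFN-b daily. GFP- CD45+ CD11b+ Ly6Chi Ly6G- cells of either donor were sorted at disease peak, so that the WT group had the IFNAR1 chain of the type I interferon (IFN) receptor and the Ifnar1-/- group lacked it, and no library came from untreated mice. The donor CD45 type and the receptor genotype cannot be told apart, the ages of the mice are not given in the labels, and recipient cells that survived irradiation carry GFP and fell outside the sort gate. The labels do not say whether the libraries of a group came from separate mice, so the p-values measure the spread between these libraries, which may be technical. By the study's description there were as many recipients as libraries in a group, each with cells of both donors, so a WT and an Ifnar1-/- library may share a mouse, which no label states.

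Chemokine receptors are 7-transmembrane proteins that couple to Gi proteins and steer leukocytes along gradients of secreted chemokines. CCR2 brings Ly6Chi monocytes out of the BM and into inflamed tissue, and CX3CR1 is the receptor that marks patrolling monocytes and microglia. S1PR1 is not a chemokine receptor. It reads the lipid sphingosine-1-phosphate (S1P) and serves the exit of lymphocytes from lymphoid organs.

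Promoter sequence is shown for the receptor genes whose window held a match to a searched motif. RefSeq start sites (GRCm38.p6) were found for 7 of the 9 genes, in 9 windows from 250 bases before to 50 bases after the start, and *Ccr7* and *S1pr1* had no entry. Both strands were searched, and 3 motifs are reported. The motif of the IFN-stimulated response element type, a pair of GAAA repeats separated by 2 bases, was in 0 of the 9 windows and in 3.44% of all 32851 windows. The NF-kB-type motif, GGGNNTTCC, was in 1 of the 9 and in 5.82% of all windows, in *Ccrl2* from position -56. The PU.1-type motif, GAGGAAGT, was in 1 of the 9 and in 3.20% of all windows, in *Cxcr3* from position -16. These letter matches describe the windows and are not evidence of binding. Both sequences read 5′ to 3′ on the minus strand, and the capitals mark the match, which for *Cxcr3* is the reverse complement of the motif. The *Ccrl2* stretch is chr9:111057519-111057768, the 250 bases before the farthest upstream of its 3 start sites, and the *Cxcr3* stretch is chrX:101734145-101734174, which runs across its start site.
Ccrl2: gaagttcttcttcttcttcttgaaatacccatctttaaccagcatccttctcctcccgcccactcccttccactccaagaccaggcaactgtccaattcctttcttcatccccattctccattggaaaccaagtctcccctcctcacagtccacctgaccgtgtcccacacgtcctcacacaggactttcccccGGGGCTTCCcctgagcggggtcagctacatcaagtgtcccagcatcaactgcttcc
Cxcr3: gtgaaatcttcACTTCCTCtgttcactgca

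Library totals ranged from 4531782 to 7321380 expected counts. The share of ribosomal RNA was 12.3% to 22.7%, and the 7S RNAs took 38.4% of the deposited TPM (a length-corrected share of transcripts) in WT library 1 against 14.2% to 19.4% in the others. Levels were therefore compared between genes on TPM rescaled over protein-coding genes, and between libraries on normalized CPM (expected counts divided by the library size after TMM adjustment). The detection floor of 3 counts was worth 0.410 to 0.662 CPM, which covers counting error only. The targeted gene, *Ifnar1*, had 153, 126, and 111 normalized CPM in the WT group and 109.9, 102, and 109 in Ifnar1-/- libraries, and its log2 fold change of 0.28 (SE 0.15, edgeR adjusted p = 0.360) turned negative on the TPM scale. Gene-level counts do not resolve exons, so the groups rest on the labels. Of the markers of the sort, *Ly6c2*, which encodes Ly6C and has a near-identical neighbour that can share its reads, was higher in WT libraries, with 726, 788, and 639.7 normalized CPM against 177, 300.3, and 337 (log2 fold change 1.40, SE 0.23, adjusted p = 0.00957). *Ly6g* lay at or below 0.790 normalized CPM in every library.

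The 9 receptor genes spanned a wide range of levels, and the same 4 genes led in every library. On the protein-coding TPM scale, *Ccr2* lay between 374 and 784 and *Ccr1* between 331 and 514. *Ccr2* was above *Ccr1* in 6 of 6 libraries and ranked from 211 to 419 among protein-coding genes. *Ccrl2* (85.1 to 193) and *Cxcr4* (88.7 to 157) came next and exchanged places, with *Ccrl2* above *Cxcr4* in 2 of 6 libraries, both of them WT. *Cx3cr1* lay between 6.43 and 21.9 and *Cxcr2* between 2.53 and 8.40, and *Cx3cr1* was the higher of the pair in 5 of 6 libraries. The lowest levels were those of *S1pr1* (0.349 to 5.69), *Cxcr3* (0.426 to 3.47), and *Ccr7* (0 to 1.95). *Cxcr3* was above *S1pr1* in 3 of 6 libraries, so these neighbours had no fixed order, and *Ccr7* was above *Cxcr3* in 1 library.

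**Figure D1:**
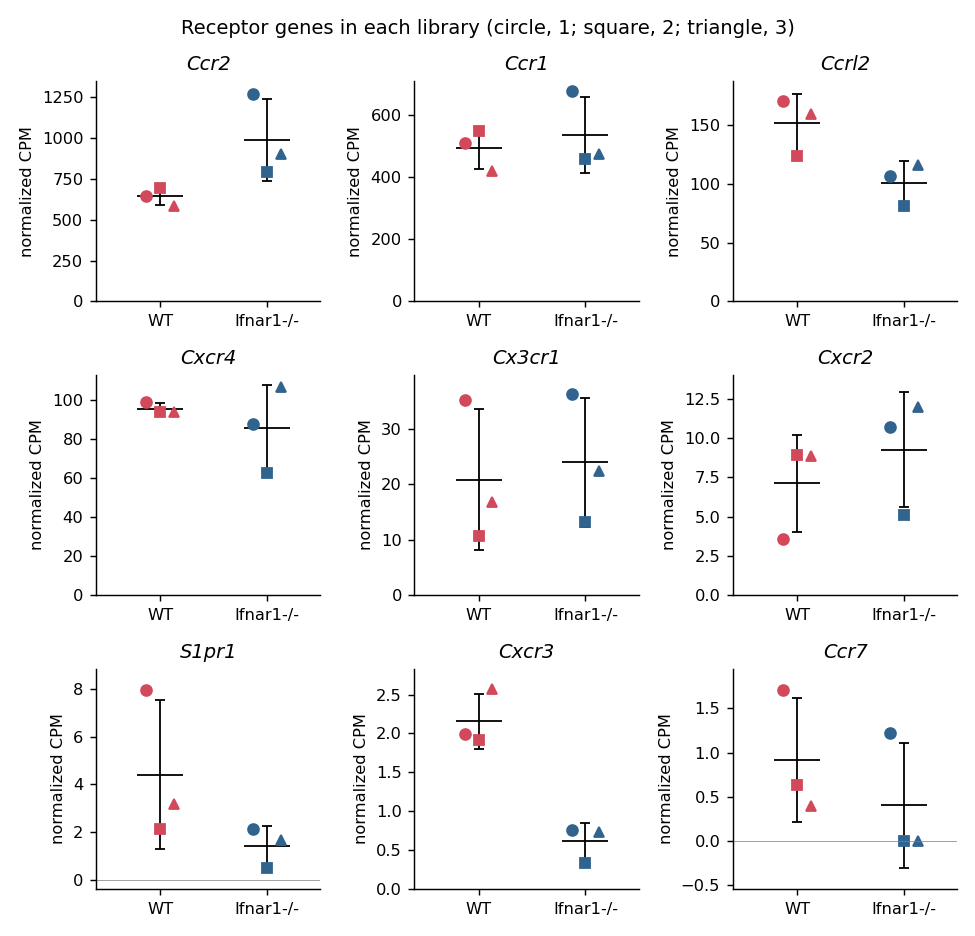
Normalized CPM (linear axes) of each receptor gene in the 3 WT (red) and 3 Ifnar1-/- (blue) libraries; circles, squares, and triangles are libraries 1, 2, and 3, horizontal lines are group means, and bars are SD. Each WT library lies below each Ifnar1-/- library for *Ccr2* and above for *Ccrl2* and *Cxcr3*, and *S1pr1* is highest in WT library 1. The SD bar of *Ccr7* passes below 0, where no value can lie.

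None of the 8 receptor genes tested was differentially expressed, defined as an adjusted p of at most 0.05 with a change of at least 1.5-fold. The edgeR quasi-likelihood test called 0 of 8, against 2.13% of all 11254 genes. At an unadjusted p under 0.05 there were 4 of 8 receptor genes (*Ccr2*, *Ccrl2*, *Cxcr3*, and *S1pr1*) against 17.8% of all genes, and DESeq2 called 1 (*Ccr2*) where it called 3.83% of the genes it tested. Without the filter on low counts, edgeR called 2 (*Ccr2* and *S1pr1*) where 4.1% of genes were called, and with a block for the replicate number plus offsets for GC content and length it called 1 (*Ccrl2*) where 3.08% were. WT and Ifnar1-/- libraries did not overlap for 3 of 8 receptor genes, against 23.4% of all genes. *Ccrl2* and *Cxcr3* were higher in WT, as were 11.1% of all genes, and *Ccr2* was lower, as were 12.2%. *Cxcr3* passed the filter through its WT counts alone and *S1pr1* mainly through them, so the filter favoured values high in WT. These shares are therefore given as a description only. Over the receptor genes the median log2 fold change was 0.02, and over all genes tested it was -0.01. With 3 libraries against 3, the two-sided exact permutation test over libraries cannot give a p below 0.1.

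*Ccr2* (ENSMUSG00000049103.14, GRCm38 chr9:124101950-124113557, plus strand), the receptor for CCL2 and CCL7, lay lower in each WT library but was not called. It had 648, 694, and 587 normalized CPM in the WT group and 1269, 794, and 905 in Ifnar1-/- libraries. All WT libraries were below all Ifnar1-/- libraries, and Ifnar1-/- library 1 was the highest. The means were 643 ± 53.7 (SD, n = 3) and 989 ± 248 (SD, n = 3), which is 1.54-fold higher in Ifnar1-/- monocytes on the fitted scale. The log2 fold change, WT over Ifnar1-/-, was -0.62 (SE 0.20, 95% interval -1.06 to -0.19), with an adjusted p of 0.143 in edgeR and p = 0.1 in the exact permutation test, the smallest possible. *Ccr2* was the only receptor gene with counts that were not whole (fractions up to 0.41), since RSEM divides reads that fit several genes. DESeq2 gave -0.60 with an adjusted p of 0.0416, and without Ifnar1-/- library 1 edgeR gave -0.39 (adjusted p = 0.438).

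*Ccr1* (ENSMUSG00000025804.5, chr9:123962124-123968692, minus strand) is a receptor for CCL3, CCL6, and CCL9, and its gene lies 133 kb from *Ccr2*. It had 509.6, 549, and 422 normalized CPM in the WT group and 679, 459, and 476 in Ifnar1-/- libraries. The groups overlapped, with means of 493 ± 65.4 (SD, n = 3) and 538 ± 123 (SD, n = 3). The log2 fold change was -0.13 (SE 0.19, 95% interval -0.55 to 0.30, adjusted p = 0.779). *Ccr1* and *Ccr2* had GC contents of 39.1% and 39.2%, at the 3.16 and 3.36 percentile of tested genes. Fold changes rose with GC content across genes (Spearman rho 0.38 over 11242 genes, which are not independent replicates). With offsets for GC content and length, *Ccr1* turned to 0.09 and *Ccr2* moved to -0.42 (adjusted p = 0.313).

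The ratio of *Ccr2* to *Ccr1* within a library does not depend on library scaling, and it was looked at after the values were seen. On TPM it was 1.04, 1.05, and 1.13 in the WT group and 1.52, 1.40, and 1.55 in Ifnar1-/- libraries. The groups did not overlap, and no test is given for a ratio chosen in this way. A within-library ratio shows unequal levels of the 2 genes and does not show which of them differed.

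The ratio of *Ccr2* to *Cx3cr1*, a pair that separates classical from patrolling monocytes, did not separate the groups. It was 20.4, 67.5, and 37.6 in the WT group and 35.8, 65.4, and 41.2 in Ifnar1-/- libraries on TPM. The groups overlapped, with a difference of -0.30 on the log2 scale (two-sided exact permutation test, p = 0.7). *Cx3cr1* itself (ENSMUSG00000052336.7, chr9:119901616-120069879, minus strand), the fractalkine receptor, had 35.1, 10.6, and 16.8 normalized CPM in the WT group and 36.3, 13.2, and 22.4 in Ifnar1-/- libraries. Library 1 was the highest of both groups, and the groups overlapped. The log2 fold change was -0.18 (SE 0.43, 95% interval -1.13 to 0.77, adjusted p = 0.865), the widest interval of the 6 receptor genes that had at least 25 counts in every library. The annotated span of *Cx3cr1* overlaps 9 other genes, 3 on its strand and 6 on the other. Whether strand was used in counting is not given in the sources used here, so reads of opposite-strand neighbours could be among its counts.

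*Ccrl2* (ENSMUSG00000043953.12, chr9:111054486-111057519, minus strand) encodes an atypical receptor that binds chemerin and does not signal through G proteins. Its normalized CPM was 171, 124, and 159.7 in the WT group and 106, 81.0, and 116 in Ifnar1-/- libraries. All WT libraries lay above all Ifnar1-/- libraries, with means of 151 ± 24.7 (SD, n = 3) and 101 ± 18.0 (SD, n = 3). The log2 fold change was 0.58 (SE 0.18, 95% interval 0.18 to 0.98), an adjusted p of 0.135 in edgeR and p = 0.1 in the exact permutation test. This is 1.499-fold, just under the 1.5-fold threshold. The deposited transcript length of *Ccrl2* varied from 1998 to 2176 bases between libraries, so that its isoform mix was estimated differently by library.

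*Cxcr4* (ENSMUSG00000045382.6, chr1:128588199-128592293, minus strand), the receptor for CXCL12 that retains cells in the BM, had 99.3, 93.9, and 94.0 normalized CPM in the WT group and 87.7, 62.7, and 107 in Ifnar1-/- libraries. The WT libraries lay close together and inside the range of the Ifnar1-/- libraries. The means were 95.7 ± 3.10 (SD, n = 3) and 85.7 ± 22.0 (SD, n = 3), with a log2 fold change of 0.16 (SE 0.19, 95% interval -0.25 to 0.57, adjusted p = 0.696). The gene lies 9.53 Mb from *Ptprc*, which encodes CD45 and differs between the donors, so a donor difference in this region cannot be told apart from the genotype.

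*Cxcr2* (ENSMUSG00000026180.8, chr1:74153989-74161246, plus strand) is the receptor for CXCL1 and CXCL2 that is best known on neutrophils. It had 3.56, 8.93, and 8.88 normalized CPM in the WT group and 10.7, 5.08, and 12.0 in Ifnar1-/- libraries, from 25 to 70 counts. The groups overlapped, and the log2 fold change was -0.40 (SE 0.40, 95% interval -1.29 to 0.48, adjusted p = 0.638). The summed level of the 10 neutrophil markers was 354, 824, and 2378 normalized CPM in the WT group and 1058, 906, and 2775 in Ifnar1-/- libraries, and it varied more within groups than between them. Of these markers 9 were tested and 0 were called, where 2.13% of all genes were. WT library 1 was lowest for both *Cxcr2* and the neutrophil markers and Ifnar1-/- library 3 was highest for both. The orders differed between these extremes. WT library 3, with a marker sum of 2378, had less *Cxcr2* than WT library 2 (sum 824) and Ifnar1-/- library 1 (sum 1058). *Ly6g*, one of the 10 markers, lay very low in every library, so the sum came from other markers and is not a count of neutrophils. The list also holds *S100a8* and *S100a9*, whose part in the sum is not reported here. The part of neutrophils in the *Cxcr2* values was not tested.

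*Cxcr3* and *S1pr1* were low. Both passed the filter wholly or mainly through their counts in WT libraries, so that the filter favoured a difference in this direction. *Cxcr3* (ENSMUSG00000050232.6, chrX:101731535-101734269, minus strand), the receptor for CXCL9, CXCL10, and CXCL11, is best known on activated T cells and NK cells. It had 14, 9, and 13 counts in the WT group and 5, 2, and 4 in Ifnar1-/- libraries, or 1.99, 1.91, and 2.57 against 0.764, 0.339, and 0.736 normalized CPM. All WT libraries lay above all Ifnar1-/- libraries, with means of 2.16 ± 0.357 and 0.613 ± 0.238 (SD, n = 3 each). The log2 fold change was 1.77 (SE 0.49, 95% interval 0.69 to 2.86), with an adjusted p of 0.105 in edgeR and p = 0.1 in the exact permutation test.

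*S1pr1* (ENSMUSG00000045092.8, chr3:115710433-115715072, minus strand) had 56, 10, and 16 counts in the WT group and 14, 3, and 9 in Ifnar1-/- libraries. On normalized CPM these were 7.97, 2.13, and 3.16 against 2.14, 0.508, and 1.66. WT library 1 stood far above the other libraries, and WT library 2 was just below Ifnar1-/- library 1, so the groups overlapped. The log2 fold change was 1.64 (SE 0.59, 95% interval 0.33 to 2.96, adjusted p = 0.184), and p = 0.2 in the exact permutation test. Without WT library 1 it was 0.87.

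*Ccr7* (ENSMUSG00000037944.8, chr11:99144196-99155077, minus strand), which guides dendritic cells and naive lymphocytes to lymph nodes, had 12, 3, and 2 counts in the WT group and 8, 0, and 0 in Ifnar1-/- libraries. It was too low for the edgeR test, and the exact permutation test gave p = 0.3. A count of 0 allows up to 0.516 and 0.551 CPM in the Ifnar1-/- libraries 2 and 3. Library 1 was the highest of both groups.

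**Figure D2:**
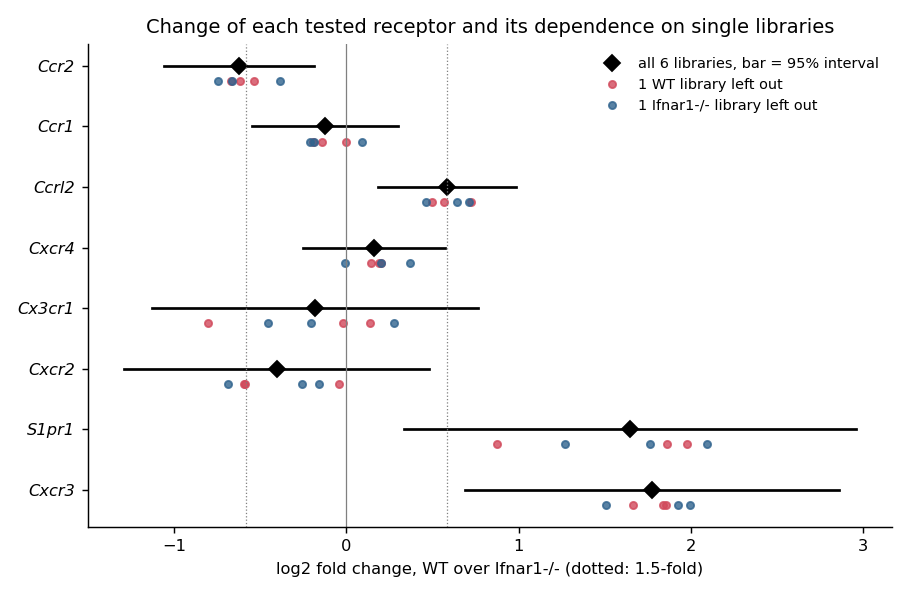
Log2 fold change, WT over Ifnar1-/-, of the 8 receptor genes tested (linear axis); diamonds are the fit of all 6 libraries with its 95% interval, and dots are the same fit with 1 WT (red) or 1 Ifnar1-/- (blue) library left out. Dotted lines mark a 1.5-fold change. The interval of *Ccr2* lies below 0 and those of *Ccrl2*, *Cxcr3*, and *S1pr1* above 0 before adjustment over all genes, and *S1pr1* ranges from 0.87 to 2.09 when single libraries are left out.

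**Figure D3:**
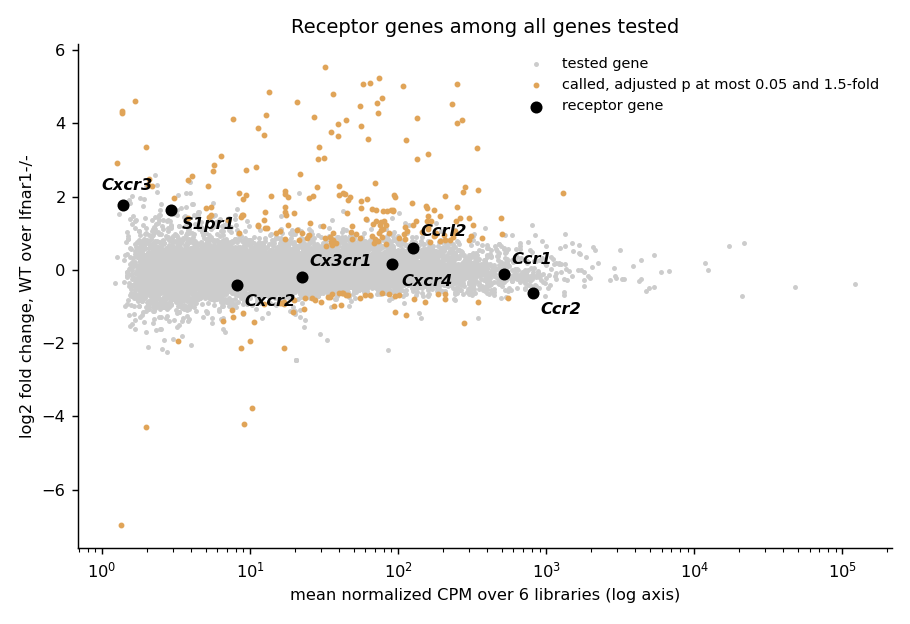
Log2 fold change, WT over Ifnar1-/-, against mean normalized CPM (log axis) of the 11254 genes tested, with the 240 called genes in orange and the 8 tested receptor genes in black. The receptor genes lie among genes that were not called.

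Because *Cxcr3*, *S1pr1*, and *Ccr7* are strong in lymphocytes or dendritic cells, markers of these cells were read beside them. The summed level of the 12 T cell markers was 139.6, 100.3, and 109 normalized CPM in the WT group and 58.8, 59.5, and 50.6 in Ifnar1-/- libraries. All 10 T cell markers tested had positive log2 fold changes (median 1.26), and none was called, where 2.13% of all genes were. Of the 10, 7 did not overlap between groups (*Cd3d*, *Cd3e*, *Cd3g*, *Cd4*, *Cd28*, *Il7r*, and *Bcl11b*), against the 11.1% of all genes that were higher in WT without overlap. Low markers could pass the filter on low counts wholly or mainly through their WT counts, as *Cxcr3* and *S1pr1* did. *Bcl11b*, for one, did not reach 10 counts in every library, so these shares are given as a description only. Much of the sum was *Il7r*, with 83.1, 75.7, and 53.5 normalized CPM in WT libraries against 34.2, 47.6, and 37.2, while *Cd3e* lay between 0.508 and 8.09. The 6 NK cell markers summed to 5.69, 3.40, and 13.2 in the WT group and 3.36, 1.02, and 1.10 in Ifnar1-/- libraries, with *Ncr1* at 0 in all libraries but WT library 2. The 7 B cell markers summed to 21.1, 9.56, and 13.2 against 9.32, 7.63, and 14.5, with *Pax5* at 0 throughout. The NK cell marker and the 2 B cell markers tested were not called. The 9 migratory dendritic cell markers summed to 68.4, 57.2, and 45.4 against 53.8, 42.0, and 37.0, and 0 of 4 tested were called. In these bulk libraries, fewer cells of a type and less RNA per cell cannot be told apart, and the part of T cells, NK cells, and dendritic cells in the values of *Cxcr3*, *S1pr1*, and *Ccr7* was not tested.

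**Figure D4:**
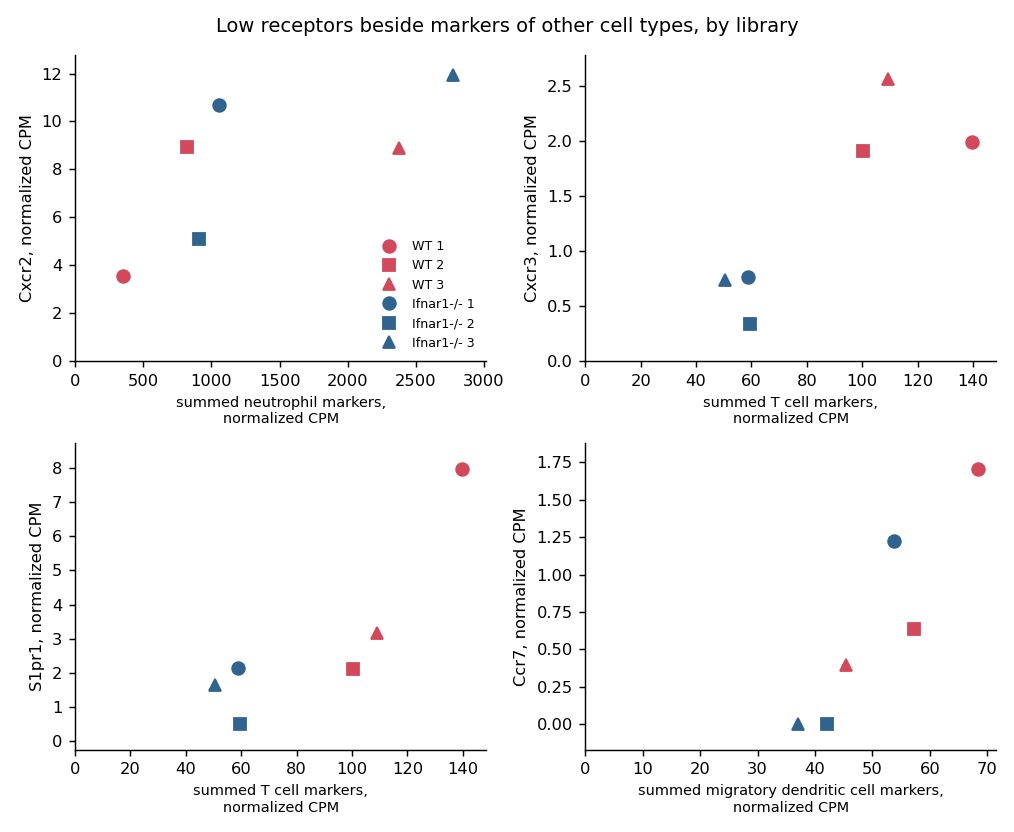
Normalized CPM (linear axes) of *Cxcr2*, *Cxcr3*, *S1pr1*, and *Ccr7* against the summed normalized CPM of neutrophil, T cell, T cell, and migratory dendritic cell markers, 1 point per library (WT red, Ifnar1-/- blue). The 3 WT libraries lie to the right of the Ifnar1-/- libraries on the T cell axes, from 100.3 to 139.6 against 50.6 to 59.5.

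The monocyte markers were read in the same way. Of the 10 classical monocyte markers, all were tested and *Ly6c2* was called, where 2.13% of all genes were. Of the 10, 3 were higher in every WT library than in every Ifnar1-/- library, against 11.1% of all genes. They include *Ly6c2* and also *Ms4a6c*, which was not called. The median over the 10 was -0.02, and *Lyz2*, which encodes lysozyme, and *Chil3* were most abundant. None of the 7 nonclassical monocyte markers was called, with a median of 0.33, and *Pou2f2* alone did not overlap (log2 fold change 1.49, adjusted p = 0.167). Of the 8 microglia markers, 0 of 5 tested were called, with *Tmem119* between 2.13 and 11.4 normalized CPM over the 6 libraries.

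Among 15 other chemokine receptors, little was detected. Of these, 9 had at most 3 counts in every library, 4 of them 0 counts throughout, and only *Cxcr6*, the receptor for CXCL16, passed the filter. It had 4.84, 3.19, and 6.32 normalized CPM in the WT group and 2.14, 0.847, and 2.02 in Ifnar1-/- libraries (log2 fold change 1.51, SE 0.43, adjusted p = 0.113). The groups did not overlap, where 11.1% of all genes were higher in WT without overlap. *Cxcr6* had 34, 15, and 32 counts in the WT group and 14, 5, and 11 in Ifnar1-/- libraries. Ifnar1-/- libraries 1 and 3 also met the minimum count, so its passing of the filter did not rest on WT libraries alone. *Cxcr6* also marks T cells and NK cells, whose summed markers were higher in WT libraries, and their part was not tested.

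Several other receptors that guide monocytes were more abundant, while *S1pr3*, *S1pr4*, and *S1pr5* had at most 4.54 normalized CPM. Of 13 receptors for complement, formyl peptides, lipids, chemerin, and S1P, 11 were tested and 0 were called, where 2.13% of all genes were. The median log2 fold change was 0.24. *Ptafr*, the receptor for platelet-activating factor, had 301, 287, and 211 normalized CPM in the WT group and 207, 183, and 172 in Ifnar1-/- libraries (log2 fold change 0.51, adjusted p = 0.161). *Ltb4r1*, the leukotriene B4 receptor, lay the other way, with 36.3, 56.1, and 45.6 against 66.0, 64.2, and 67.7 (-0.52, adjusted p = 0.146). Neither overlapped between groups, where 23.4% of all genes did not. *Fpr2*, a formyl peptide receptor, was the most abundant of the list, with means of 336 in WT and 342 in Ifnar1-/- monocytes on the protein-coding TPM scale (log2 fold change -0.10 in edgeR, adjusted p = 0.862).

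The ligands of the receptors were measured as transcripts of the sorted cells themselves. Of 21 ligand genes, 14 were tested, 1 was called higher in WT and 0 lower, where 1.67% and 0.462% of all genes were, and the median log2 fold change was 0.75. The called gene was *Cxcl10*, a CXCR3 ligand induced by IFN, with 118, 127, and 102 normalized CPM in the WT group and 56.7, 51.7, and 63.1 in Ifnar1-/- libraries. The groups did not overlap, and the log2 fold change was 1.02 (SE 0.15, edgeR adjusted p = 0.00444), which was called in every alternative run. The other genes listed as CXCR3 ligands were not called. *Cxcl9* had 106, 154, and 150.2 against 122, 182, and 172 normalized CPM (-0.21, adjusted p = 0.614), and *Cxcl11* had 5.26, 6.80, and 3.55 against 1.53, 2.71, and 0.552 (1.68, adjusted p = 0.118). *Cxcl11* had 37, 32, and 18 counts in the WT group and 10, 16, and 3 in Ifnar1-/- libraries. It passed the filter mainly through its WT counts, so that the filter favoured a difference in this direction. The gene annotation used here does not class *Cxcl11* as protein-coding, so its transcript is not read as a working ligand.

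Ligands of CCR2 and CCR1 were not called. *Ccl2* had 278, 121, and 116 normalized CPM in the WT group and 145, 56.6, and 73.9 in Ifnar1-/- libraries (log2 fold change 0.91, adjusted p = 0.260), with overlap. *Ccl6*, the most abundant ligand gene, had a mean of 1511 in WT and 1593 in Ifnar1-/- monocytes on the protein-coding TPM scale (log2 fold change -0.12 in edgeR, adjusted p = 0.855). *Ccl4* did not overlap, with 19.6, 12.7, and 15.2 against 11.9, 5.76, and 9.93 normalized CPM (0.79, adjusted p = 0.176). Of the 14 ligand genes tested, 3 were higher in WT without overlap, against 11.1% of all genes. *Cxcl12*, the ligand of CXCR4, had at most 0.790 normalized CPM, and *Rarres2*, which encodes chemerin, had 0 counts in every library.

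Of 8 genes of S1P metabolism and S1PR1 control, 7 were tested and 1 was called, where 2.13% of all genes were. The median log2 fold change was 0.37. *Cd69* encodes a membrane protein that binds S1PR1 and lowers it at the cell surface. It had 82.1, 85.2, and 87.5 normalized CPM in the WT group and 63.1, 43.7, and 46.9 in Ifnar1-/- libraries (log2 fold change 0.73, SE 0.16, adjusted p = 0.0493). This call stood at the threshold and was lost in 5 of 6 fits that left out a library, with adjusted p-values from 0.0257 to 0.190. *Plpp3*, a phosphatase of S1P, had 7.12, 11.1, and 9.87 against 3.21, 4.91, and 3.86 (log2 fold change 1.21, adjusted p = 0.0613). *Klf2*, a transcription factor that drives *S1pr1* in T cells, had 91.8, 42.5, and 89.0 against 43.5, 25.1, and 50.9, with overlap (0.91, adjusted p = 0.166, and 0.51 with offsets for GC content and length). *Sgpl1*, the S1P lyase, was the most abundant, with -0.09 (adjusted p = 0.782).

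Signaling genes downstream of the receptors were not called. Of 24 such genes, 23 were tested and 0 were called, where 2.13% of all genes were, and the median log2 fold change was 0.10. *Gnai2*, the main Gi subunit of leukocytes, was the most abundant (0.19, adjusted p = 0.611). WT libraries were higher without overlap for 3 of the 23 (*Prex1*, *Rac2*, and *Grk2*), against 11.1% of all genes. They were lower without overlap for 2 (*Gnai3* and *Rgs10*), against 12.2%. *Prex1*, an activator of Rac, had 450.5, 313, and 375 normalized CPM in the WT group and 182, 292, and 237 in Ifnar1-/- libraries (0.68, adjusted p = 0.128), which fell to 0.21 with offsets for GC content and length (adjusted p = 0.558). *Rgs10*, which ends Gi signals, had 38.4, 43.1, and 43.8 against 56.2, 61.8, and 56.1 (-0.48, adjusted p = 0.108, and -0.30 with the offsets).

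**Figure D5:**
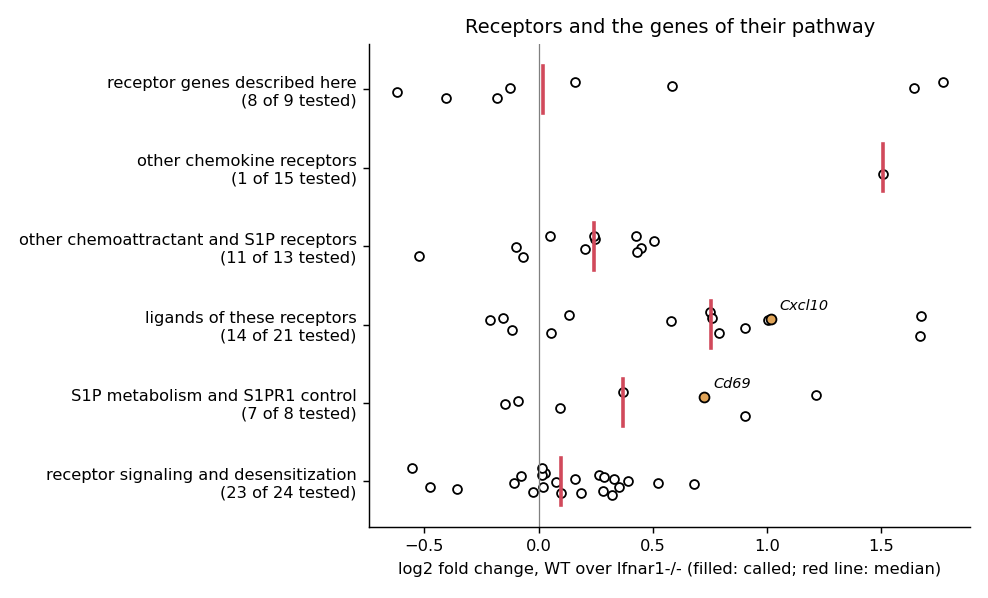
Log2 fold change, WT over Ifnar1-/-, of the tested genes of each list, 1 circle per gene, moved vertically only to keep them apart; red lines are list medians and filled circles are called genes. *Cxcl10* at 1.02 and *Cd69* at 0.73 are the called genes among the ligands and the S1PR1 controls.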

How the data were processed

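RNA-seq of sorted CNS monocytes was read from 1 file per library. Per the labels and the study's methods, the authors sequenced paired-end reads of 75 bp, mapped them to GRCm38, and used RSEM to deposit an expected count and a TPM for each gene. The submitters' processing notes name RSEM 1.2.31 and STAR 2.6.0c. The labels and the methods name different library kits. The deposited expected counts were not normalized. RSEM divides reads among similar genes, which affects genes with close copies. The deposited TPM was scaled by the authors to a fixed total, so that abundant 7S RNA lowers all other values.

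Gene names came from GENCODE M21 (54165 of 54232 identifiers matched). Expected counts were rounded and tested with edgeR 4.0.16 in R 4.3.3 (TMM, filterByExpr with a minimum count of 10, quasi-likelihood test without a block, Benjamini-Hochberg adjustment over 11254 of 21265 genes with any count). Alternatives were DESeq2 1.42.0, RLE normalization, no filter, at least 10 counts in every library, limma 3.58.1 (voom, and log2 TPM with pseudocounts of 1 and 0.1), removal of mitochondrial and ribosomal RNA genes, offsets for GC content and length, a replicate block, and leaving out each library. Exact permutation tests used log2(normalized CPM + 0.5). The edgeR fit was tested on simulated data with 2 settings of the dispersion. In both, no call had the wrong direction, but not all changed genes were recovered, fewer of those with small changes, and the share of false calls was above the nominal rate. Recovery was lower and false calls were more frequent with a dispersion that varied from gene to gene than with one that followed the trend, which was added after the first result was seen. A gene that was not called may therefore still have changed. Calls near the threshold should be read with this in mind.

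The receptor genes and the gene lists were chosen with earlier results of these data known. Named genes were the 9 receptor genes, *Ifnar1*, the called and the most abundant gene of each pathway list, and marker genes whose groups did not overlap, except where not reported here. Other ligands, *Ptafr*, *Ltb4r1*, *Plpp3*, *Klf2*, *Cxcr6*, and further genes of the pathway lists that did not overlap between groups were named after their values were seen. Results for some genes and 1 motif are not reported here.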

Additional observations from a re-analysis of the deposited data

How the results depend on the processing

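The number of receptor genes called was 0 in the edgeR fit, 1 with DESeq2, 2 without the filter on low counts, and 1 with the replicate block with GC and length offsets. Of 147 alternative values of single receptor genes, 137 kept their direction and their side of the threshold, 4 became calls, and 6 changed direction. The values that became calls were *Ccr2* with DESeq2 (-0.60) and without the filter (-0.62, adjusted p = 0.0306), *S1pr1* without the filter (1.64, adjusted p = 0.00755), and *Ccrl2* with the block and offsets (0.60, adjusted p = 0.0257). DESeq2 called 3.83% of the genes it tested. Without the filter, 4.1% of genes were called, and with the block and offsets 3.08%. *Ccr1* changed direction with the offsets (0.092) and with the block and offsets (0.084). Leaving out each library in turn gave -0.21 to 0.093 for *Ccr1*, -0.74 to -0.39 for *Ccr2*, 0.46 to 0.72 for *Ccrl2*, -0.01 to 0.37 for *Cxcr4* (-0.0054 without Ifnar1-/- library 2), -0.80 to 0.27 for *Cx3cr1* (0.14 without WT library 2 and 0.27 without Ifnar1-/- library 1), -0.69 to -0.04 for *Cxcr2*, 1.51 to 1.99 for *Cxcr3*, 0.87 to 2.09 for *S1pr1*, and -0.73 to 0.14 for the log2 ratio of *Ccr2* to *Cx3cr1* (0.14 without WT library 1). *Ifnar1* was at -0.29 and -0.30 on log2 TPM with pseudocounts of 1 and 0.1 and at -0.26 on protein-coding TPM, an alternative added after seeing the data. The cause of these changes was not tested.

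As a check of pairing, the deviations from group means correlated within numbers 1, 2, and 3 by 0.0906, 0.0278, and 0.275. Between unlike numbers the correlations were 0.0920 (WT library 1 with Ifnar1-/- library 2), 0.0180, -0.0495, -0.122, -0.134, and -0.196. These values do not settle whether same-numbered libraries are pairs, and no label ties numbers to mice. The main test did not take the numbers as pairs, so it would ignore a real pairing. With the replicate number as a block, 0 receptor genes were called, and the share of all genes called in that fit is not given here. The block gave -0.60 for *Ccr2* (adjusted p = 0.160), 0.59 for *Ccrl2* (0.0870), 1.60 for *S1pr1* (0.0951), 1.77 for *Cxcr3* (0.131), -0.11 for *Ccr1*, -0.24 for *Cx3cr1*, -0.42 for *Cxcr2*, and 0.19 for *Cxcr4*. The ratio of *Ccr2* to *Cx3cr1* over same-numbered pairs gave p = 0.5 in the exact sign-flip test, which cannot go below 0.25. The call of *Cd69* was lost with the block (adjusted p = 0.0673), while *Klf2* (0.0204) and *Plpp3* (0.0485) became calls. No value was had for *Cxcr3* and *S1pr1* with at least 10 counts in every library, or where DESeq2 gave no adjusted p. At 2 to 56 counts per library, *Cxcr3* and *S1pr1* are limited by depth.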
